A study of Homo sapiens with 6 samples.

Results

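The beta-thymosin family is represented in these tables by 5 genes, TMSB4X, TMSL3, TMSB10, TMSB15A and TMSB15B, which were picked by name out of 47032 gene symbols. Each name matched 1 entry per table. The family was picked with its values in these libraries known, above all the change of TMSB4X and TMSL3, so the levels and changes of the 5 genes are given as a description and no test was applied to them.

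RNA was measured once in each of 6 human prostate cancer lines. The castration-sensitive lines were LnCaP and LAPC4, grown in RPMI with 10% fetal bovine serum, and VCaP, grown in DMEM with 10% fetal bovine serum. LnCaP-abl, VCaP-CR and LAPC4-CR, the castration-resistant lines, bear the names of those parents, and all were kept in RPMI with 10% charcoal-stripped serum, which is depleted of steroids, and B27 supplement. The labels give no other treatment and no genetic change. Each parent has 1 resistant line, which differs from it in medium as well as in state, so line, medium and state cannot be told apart. In bulk RNA, a smaller number of expressing cells and less RNA per cell cannot be told apart either.

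Beta-thymosins are very short intracellular peptides that bind actin monomers and hold them back from joining filaments. Profilin competes for the same monomers and feeds them into filaments, while cofilin and related proteins take filaments apart again. The free monomer pool also holds the coactivators MRTF-A and MRTF-B away from SRF, the transcription factor that drives many cytoskeletal genes. TMSB4X encodes thymosin beta-4, the main actin-sequestering peptide of most mammalian cells. TMSB10 encodes thymosin beta-10, a close relative found at high levels in embryonic tissue and in many tumours. TMSB15A and TMSB15B encode thymosin beta-15, which was first described in motile prostate carcinoma cells.

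The coding sequences, and for TMSL3 and TMSB4XP1 the matching stretch, are shown because they tell where a short read can separate these genes. They come from GENCODE release 29 transcripts of the same Ensembl identifiers. Capitals mark every base that differs from TMSB4X or is inserted relative to it in a global alignment. TMSB4XP1, which is not a member, is added as a second close copy with a sizeable count.
TMSB4X: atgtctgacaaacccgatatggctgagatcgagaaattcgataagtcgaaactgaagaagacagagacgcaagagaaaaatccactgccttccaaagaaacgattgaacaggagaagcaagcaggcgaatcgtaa
TMSL3: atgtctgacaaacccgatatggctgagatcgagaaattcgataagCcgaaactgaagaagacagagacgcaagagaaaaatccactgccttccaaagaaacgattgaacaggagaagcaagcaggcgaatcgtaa
TMSB4XP1: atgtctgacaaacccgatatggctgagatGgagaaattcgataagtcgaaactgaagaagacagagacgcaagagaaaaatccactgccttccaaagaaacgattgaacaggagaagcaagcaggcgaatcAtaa
TMSB10: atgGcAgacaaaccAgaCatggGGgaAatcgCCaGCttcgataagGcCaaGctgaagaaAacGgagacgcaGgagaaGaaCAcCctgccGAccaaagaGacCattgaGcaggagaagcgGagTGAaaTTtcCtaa
TMSB15A: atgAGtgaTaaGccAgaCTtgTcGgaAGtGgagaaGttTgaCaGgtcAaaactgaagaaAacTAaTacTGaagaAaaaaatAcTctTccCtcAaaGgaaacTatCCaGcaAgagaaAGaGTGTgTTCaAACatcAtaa
TMSB15B: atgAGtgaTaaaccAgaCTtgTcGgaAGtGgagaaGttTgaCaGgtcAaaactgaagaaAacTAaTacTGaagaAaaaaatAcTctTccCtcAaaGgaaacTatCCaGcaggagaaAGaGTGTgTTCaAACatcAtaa

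The TMSL3 sequence, listed in that release as the processed pseudogene TMSB4XP8, differed from TMSB4X at 1 of 135 bases, the substitution T46C counted from the A of the start codon. TMSB4XP1 differed at 2 bases, C30G and G132A. TMSB10 was 74.5% identical to TMSB4X over the alignment. TMSB15A and TMSB15B were 65.2% and 66.7% identical to TMSB4X and 98.6% identical to each other. Of the 86 stretches of 50 bases in the TMSL3 sequence, 40 occur unchanged in a TMSB4X transcript, and of the 101 stretches of 35 bases, 66 do. The deposited TMSL3 entry is 628 bases long, so part of its length is outside the stretch shown. None of the 462 stretches of 35 bases in TMSB10 occurs in TMSB4X. Of the 651 stretches of 35 bases in TMSB15A, 67 (10.3%) occur in a TMSB15B transcript. The read length is not given in the sources used here, nor is the treatment of reads that match several places. The counts of TMSB4X and TMSL3 are therefore uncertain individually, and their sum is given beside them.

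TMSB4X (ENSG00000205542) lies on chromosome X from 12903148 to 12905267, TMSL3 (ENSG00000187653) on chromosome 4 from 91978659 to 91979286, and TMSB10 (ENSG00000034510) on chromosome 2 from 84986260 to 84987306. TMSB15A (ENSG00000158164) spans 101655260 to 101658368 and TMSB15B (ENSG00000158427) 103060135 to 103107524 on chromosome X. These are the coordinates of the deposited tables, for which the submitters' processing notes name the build hg18. The tables class TMSB15B as a processed transcript and the other 4 as protein-coding. TMSL3 lies inside the span of FAM190A, which was at 0.392 to 2.38 scaled FPKM (the deposited FPKM divided by a size factor per library), and TMSB10 overlaps C2orf89, which was at no more than 0.381.

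The libraries held 8661337 to 22433655 counts. All 8 luminal prostate markers read, among them KRT8, EPCAM and HOXB13, were at 1 scaled FPKM or more in 5 libraries, and 7 were in LnCaP-abl, where KLK3 was at 0.650. Leucocytes are rich in thymosin beta-4, so markers of other cells were read beside it. The 5 leucocyte markers read, PTPRC, CD3E, ITGAM, CD68 and LYZ, summed to 2.26 scaled FPKM in LnCaP and 2.67 in LnCaP-abl, and to 1.17 to 1.47 in the other 4 libraries. The highest single value was CD68 at 1.99 in LnCaP-abl. The 6 fibroblast markers summed to 51.6 in VCaP-CR, of which LUM made up 50.1, and to at most 5.28 elsewhere. The 3 basal markers summed to at most 2.22, and the 2 endothelial markers found to at most 1.70. In the LnCaP pair the fibroblast sum was 3.22 in the parent and 1.96 in LnCaP-abl. The leucocyte sum was thus somewhat higher in LnCaP-abl, but only through CD68, which was at 0.806 in LnCaP. PTPRC, CD3E, ITGAM and LYZ were lower in LnCaP-abl than in LnCaP. The fibroblast sum was higher in VCaP-CR almost wholly through LUM. COL1A1 and DCN were also higher there than in VCaP, and COL1A2, COL3A1 and PDGFRB lower. TMSB4X was higher than in the parent in both LnCaP-abl and VCaP-CR. The part of other cells in these TMSB4X values was not tested. LnCaP-abl had 1 leucocyte marker at 0, and the other 5 libraries had none.

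Per deposited length, TMSB4X mRNA was below the middle of the tested protein-coding genes in LnCaP and near the top in LnCaP-abl. It was about 2-fold higher in VCaP-CR than in VCaP, and about 3-fold lower in LAPC4-CR than in LAPC4. LnCaP had 59 counts (exact 95% Poisson interval 44.9 to 76.1) and LnCaP-abl 8817, VCaP had 612 and VCaP-CR 2167, and LAPC4 had 4812 and LAPC4-CR 2873. In scaled FPKM, in that order, these were 3.73, 438, 36.7, 79.2, 218 and 67.9. LnCaP-abl was thus the highest library and its parent LnCaP the lowest, and the other 4 lay between them. Among the 11337 tested protein-coding genes, TMSB4X ranked 6987 from the top in LnCaP and 27 in LnCaP-abl, while VCaP and VCaP-CR had ranks of 785 and 332 and LAPC4 and LAPC4-CR of 100 and 408. The deposited TMSB4X length is 1705 bases, while its GENCODE transcripts run from 495 to 1702 bases. A deposited length longer than the transcript present lowers an FPKM, so these ranks, above all the low one in LnCaP, depend on the length used. Which TMSB4X transcript was present was not tested. The log2 change, resistant minus sensitive on the log2(scaled FPKM + 1) scale used for every change below, was 6.53 for LnCaP-abl against its parent, 1.09 for VCaP-CR and -1.67 for LAPC4-CR. With 1 library per line these changes have no replicate check. The sensitive lines spanned a range of 5.53 on that scale and the resistant lines 2.67. The 3 sensitive values were thus spread wider than the 3 resistant ones.

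TMSL3 followed the same order of pairs. LnCaP had 17 counts (9.90 to 27.2) and LnCaP-abl 3831, VCaP had 319 and VCaP-CR 981, and LAPC4 had 1883 and LAPC4-CR 1462. In scaled FPKM, in that order, it was at 2.92, 517, 51.9, 97.4, 232 and 93.8. The log2 changes were 7.04, 0.89 and -1.30. The order of the 6 libraries was that of TMSB4X, with LAPC4-CR and VCaP-CR next to each other. Between these neighbours the TMSL3 counting intervals overlapped (89.1 to 98.7 and 91.4 to 104 scaled FPKM), while for TMSB4X they did not (65.4 to 70.4 and 75.9 to 82.6). In CPM, the count scaled to the library total alone, the 2 libraries stood the other way round, at 128 for TMSB4X in LAPC4-CR and 121 in VCaP-CR, so their order rests on the scaling.

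Added together, TMSB4X and TMSL3 took 8.77 CPM in LnCaP and 1161 in LnCaP-abl, a 132-fold difference. They took 80.6 in VCaP and 175 in VCaP-CR, which is 2.17-fold more, and 540 in LAPC4 and 193 in LAPC4-CR, which is 2.80-fold less. In summed scaled FPKM, which weights each entry by its own length, the log2 changes were 6.96, 0.99 and -1.47. The mean over the 3 pairs was 2.16 ± 4.34 (SD, n = 3 pairs), so the spread between pairs was larger than the mean. Without the LnCaP pair the mean was -0.24. Of the 4 members that reached the level filter of a mean of 1 scaled FPKM, 2 were at least 2-fold higher in the LnCaP pair, where 6.26% of the 16275 tested genes were. In the VCaP pair 1 of the 4 was, beside 2.37% of all tested genes. In the LAPC4 pair 2 of the 4 were at least 2-fold lower, beside 5.37%. None of the 4 was at least 2-fold lower in the LnCaP pair (6.28% of tested genes) or the VCaP pair (2.05%), or higher in the LAPC4 pair (5.28%). The members were picked for these changes, so nothing is read from the counts.

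**Figure D1:**
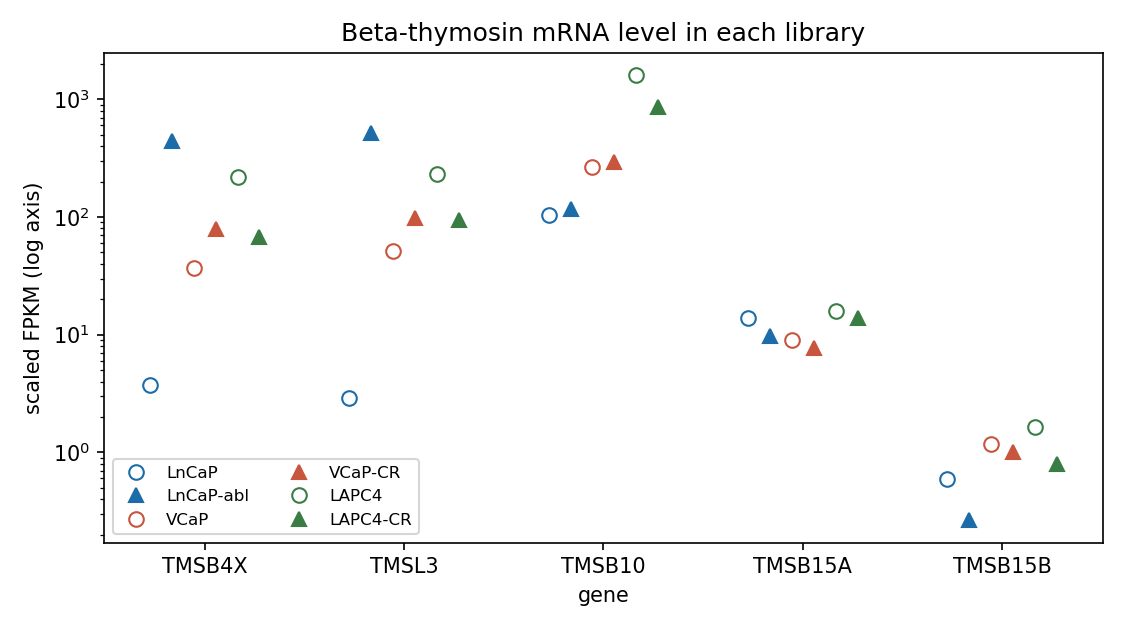
Level of each beta-thymosin gene in scaled FPKM (log axis) in the 6 libraries; open circles are castration-sensitive lines, filled triangles resistant lines, and colours the parental lines. TMSB4X and TMSL3 run from 3.73 and 2.92 in LnCaP to 438 and 517 in LnCaP-abl, while TMSB10 differs mostly between parental lines and is highest in LAPC4.

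The entries that share sequence with TMSB4X kept shares of its count that varied much less than the count itself. The TMSL3 count, as a percentage of the TMSB4X count, was 28.8% and 43.5% for LnCaP and LnCaP-abl, 52.1% and 45.3% for VCaP and VCaP-CR, and 39.1% and 50.9% for LAPC4 and LAPC4-CR. TMSB4XP1 stood at 8.40% to 11.7% of TMSB4X in the 6 libraries and TMSB4XP2 at 2.19% to 3.41%. TMSL4 stood at 1.72% to 5.08%, with 3 counts in LnCaP. TMSB4XP3 had 1 count in LnCaP and 0 in the other 5 libraries, and TMSL6 had 0 in all 6. A count of 0 allows up to 3 counts as a one-sided limit, which covers counting error only. TMSB4X together with these 6 entries took 10.2 CPM in LnCaP and 1263 in LnCaP-abl. The VCaP lines stood at 88.8 and 197 and the LAPC4 lines at 598 and 217, parent first. These are 124-fold and 2.22-fold more and 2.76-fold less, close to the values of TMSB4X and TMSL3 alone. How much of each copy's count was its own RNA was not tested.

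**Figure D2:**
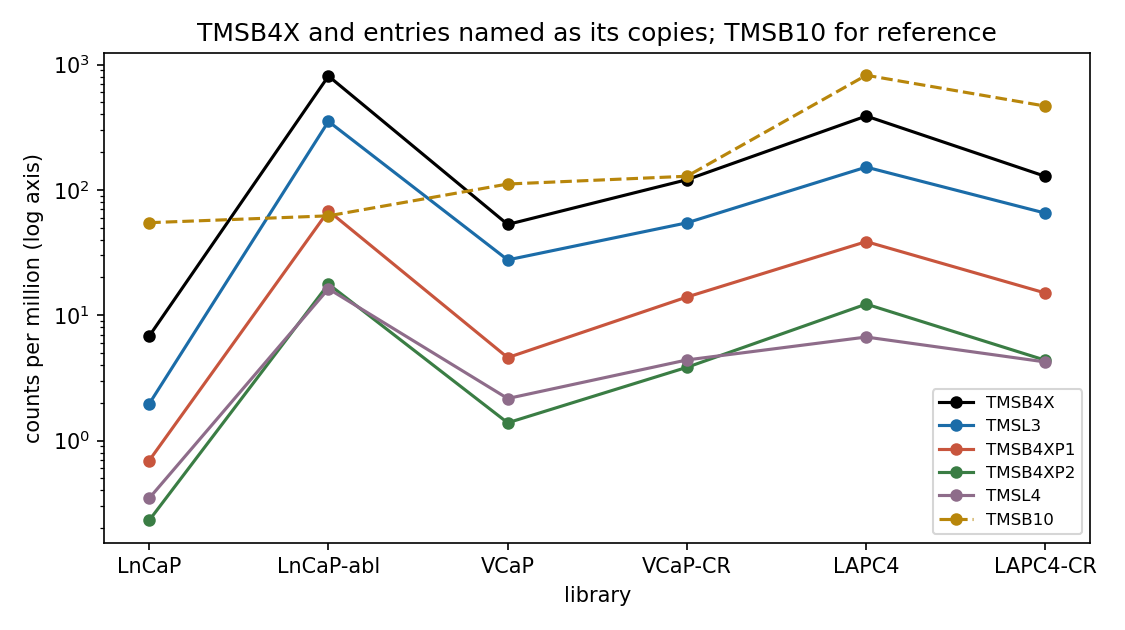
CPM (log axis) of TMSB4X, of 4 entries that copy its sequence and of TMSB10 in each library; the lines only join values of 1 gene. The copies run nearly parallel to TMSB4X from LnCaP to LAPC4-CR, with TMSL3 at 28.8% to 52.1% of its count, whereas TMSB10 is nearly level between LnCaP and LnCaP-abl.

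TMSB10 differed among parental lines much more than between the lines of a pair, and it was the most abundant tested protein-coding mRNA per length in LAPC4. LnCaP had 474 counts and LnCaP-abl 676, VCaP had 1286 and VCaP-CR 2308, and LAPC4 had 10179 and LAPC4-CR 10451. In scaled FPKM, in that order, these were 104, 116, 267, 292, 1600.1 and 856. Both LAPC4 libraries lay above both VCaP libraries, and these above both LnCaP libraries. TMSB10 ranked 223 and 170 among the 11337 tested protein-coding genes in the LnCaP pair, 94 and 72 for VCaP and VCaP-CR, and 1 and 4 for LAPC4 and LAPC4-CR. The log2 changes were 0.16, 0.13 and -0.90, each of the sign of the TMSB4X change but smaller, with a mean of -0.20 ± 0.61 (SD, n = 3 pairs). The counting intervals of parent and resistant line overlapped in the LnCaP pair (94.8 to 114 and 108 to 125) and just overlapped in the VCaP pair (253 to 282 and 281 to 305). They were apart in the LAPC4 pair (1569 to 1632 and 840 to 873). Such intervals cover counting error only.

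TMSB10 was the largest member by count in LnCaP and TMSB4X in LnCaP-abl. TMSB10 made up 71.0% of the counts of the 5 members in LnCaP (Wilson 95% interval 67.4% to 74.3%) and 5.04% in LnCaP-abl (4.68% to 5.42%). TMSB4X and TMSL3 held 8.83% and 2.54% of them in LnCaP, and 65.7% and 28.5% in LnCaP-abl. VCaP and VCaP-CR had TMSB10 shares of 54.9% and 41.0%, LAPC4 and LAPC4-CR of 59.4% and 69.1%. TMSB10 was the largest member by count in 5 libraries, LnCaP-abl being the exception. The 5 members together took 77.1 CPM in LnCaP and 1232 in LnCaP-abl. VCaP and VCaP-CR gave them 203 and 313 CPM, LAPC4 and LAPC4-CR 1382 and 674. LnCaP-abl and LAPC4 thus had similar totals in CPM, in which the members' proportions differed. In summed scaled FPKM their totals were less alike, at 1081 in LnCaP-abl and 2068 in LAPC4.

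TMSB15A was at a moderate level in all 6 libraries and spanned a range of 0.94 on the log2 scale, the smallest of the 5 members. LnCaP had it at 13.9 scaled FPKM and LnCaP-abl at 9.77, VCaP at 9.10 and VCaP-CR at 7.73, and LAPC4 at 15.8 and LAPC4-CR at 13.9, from 88, 79, 61, 85, 140 and 236 counts in that order. The resistant line was the lower one in each pair, with log2 changes of -0.47, -0.21 and -0.18, none of which reached 2-fold. The counting intervals of parent and resistant line overlapped in all 3 pairs (11.1 to 17.1 and 7.73 to 12.2, 6.96 to 11.7 and 6.18 to 9.56, and 13.3 to 18.7 and 12.2 to 15.8). Among the 11337 tested protein-coding genes its ranks, in the same order of libraries, were 2382, 3825, 3583, 4258, 2231 and 2717. In LnCaP it was thus above TMSB4X per deposited length (685 bases against 1705), and also by count, with 88 against 59.

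TMSB15B was the lowest member per length and the only member below the level filter. LnCaP had it at 0.595 scaled FPKM and LnCaP-abl at 0.265, VCaP at 1.18 and VCaP-CR at 1.01, and LAPC4 at 1.65 and LAPC4-CR at 0.800, from 30, 17, 63, 88, 116 and 108 counts. Its value was the lower one in the resistant line of each pair, with log2 changes of -0.33, -0.12 and -0.56 that the added 1 keeps small. The ratio of scaled FPKM was 2.25 in the LnCaP pair and 2.06 in the LAPC4 pair, sensitive over resistant. The counting intervals overlapped in the LnCaP pair (0.401 to 0.849 and 0.154 to 0.424) and the VCaP pair (0.909 to 1.51 and 0.808 to 1.24), and were apart in the LAPC4 pair (1.36 to 1.98 and 0.656 to 0.966). The deposited length of TMSB15B is 5441 bases, against 2186 for its longest transcript in GENCODE release 29, and a longer length lowers an FPKM. By counts, the 2 genes were nearly equal in VCaP and VCaP-CR, where TMSB15A had 96.8% and 96.6% of the TMSB15B count. TMSB15A had 121% of it in LAPC4, 219% in LAPC4-CR, 293% in LnCaP and 465% in LnCaP-abl. The ratio of these 2 genes thus ran from near 1 in the VCaP lines to its highest value in LnCaP-abl, where TMSB15B had 17 counts.

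**Figure D3:**
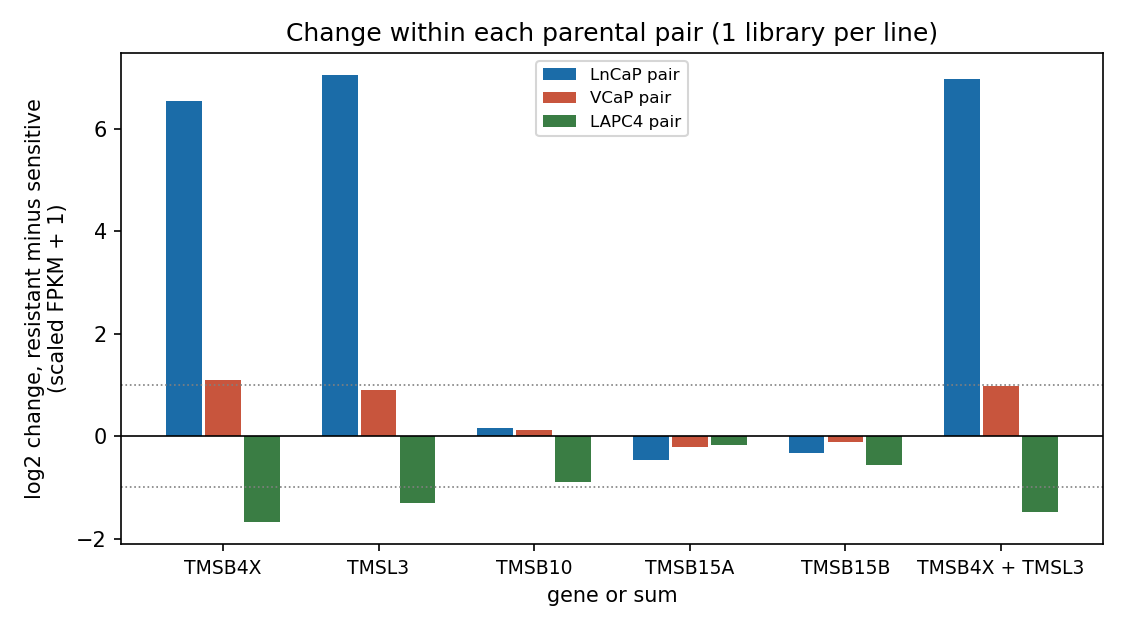
Log2 change (scaled FPKM + 1), resistant minus sensitive, for each member and for the sum of TMSB4X and TMSL3 in the 3 parental pairs; dotted lines mark 2-fold and there are no error bars because each line has 1 library. TMSB4X and TMSL3 are at 6.53 and 7.04 in the LnCaP pair and at -1.67 and -1.30 in the LAPC4 pair, whereas TMSB15A and TMSB15B stay between -0.56 and -0.12.

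The promoters of TMSB4X and TMSB10 are shown because the changes of these 2 abundant members had the same sign in each pair but very different sizes. Each runs from 250 bases before the start site to 50 after it, taken from RefSeq on GRCh38.p14, a later build than that of the deposited coordinates. RefSeq promoters were matched for 4 of the 5 members. Capitals mark GGGCGG on either strand, the letters of a GC box.
TMSB4X promoter, chrX:12974860-12975159, plus strand: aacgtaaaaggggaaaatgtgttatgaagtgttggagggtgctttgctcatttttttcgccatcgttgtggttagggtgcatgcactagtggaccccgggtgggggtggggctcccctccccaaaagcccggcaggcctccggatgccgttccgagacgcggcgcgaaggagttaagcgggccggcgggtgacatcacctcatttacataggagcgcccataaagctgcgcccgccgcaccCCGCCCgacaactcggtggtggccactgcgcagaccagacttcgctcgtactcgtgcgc
TMSB10 promoter, chr2:84905406-84905705, plus strand: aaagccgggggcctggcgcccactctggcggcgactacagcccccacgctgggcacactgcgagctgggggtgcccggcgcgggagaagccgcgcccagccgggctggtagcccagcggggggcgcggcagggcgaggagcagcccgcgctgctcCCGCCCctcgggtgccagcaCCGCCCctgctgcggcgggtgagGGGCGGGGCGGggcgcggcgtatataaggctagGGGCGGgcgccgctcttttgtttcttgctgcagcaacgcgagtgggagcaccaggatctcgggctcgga

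The TMSB4X window held GGGCGG 1 time and the TMSB10 window 5 times, counting both strands and overlaps, and 45.0% of all 35116 RefSeq promoter windows of this length hold it. The GC content was 61.3% for TMSB4X and 75.3% for TMSB10, beside a median of 58.7% over all windows. CCAAT (34.6% of windows), TATAAA (11.5%), AGAACA (14.8%) and the CArG box bound by SRF (1.29%) were also searched on both strands, and neither window held any of them. TATAAA was searched as these exact letters only. Variants such as tatataag in the TMSB10 window and cataaag in the TMSB4X window were not counted, so the search does not tell whether either promoter has a TATA box. The TMSB15A window and both TMSB15B windows each held CCAAT 1 time. One of the TMSB15B windows was 66.8% identical to that of TMSB15A in a global alignment, and the other was 46.6% identical, near the 44.4% between TMSB4X and TMSB10. A match is a description of letters and not of a bound site.

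None of the tested genes beside TMSB4X on chromosome X was higher with it in LnCaP-abl by 2-fold. Of 14 entries that start within 500 kb of it, small RNAs left out, 4 passed the level filter. In the LnCaP pair their log2 changes lay between -1.22 and 0.53, and 0 of 4 were at least 2-fold higher, beside 6.26% of all tested genes. PRPS2, a phosphoribosyl pyrophosphate synthetase and the only protein-coding gene of the 4, was named after its values were seen. It was at 21.3, 22.7, 24.6, 25.3, 18.4 and 21.3 scaled FPKM in LnCaP, LnCaP-abl, VCaP, VCaP-CR, LAPC4 and LAPC4-CR, a nearly level series. Its log2 changes were 0.09, 0.04 and 0.20. The pseudogene PSMA6P2 was at 3.93 in LnCaP and 1.11 in LnCaP-abl, from 25 and 9 counts, opposite in direction to TMSB4X. The pseudogene GS1-600G8.4 had 114 counts in LAPC4 and 1 to 5 in the other 5 libraries, among them 1 in LAPC4-CR. It was thus lower in LAPC4-CR, as TMSB4X was, but it did not share the high TMSB4X level of LnCaP-abl.

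TMSB10 has 12 tested neighbours within 500 kb, of which 1 was at least 2-fold higher and 1 lower in each of the LnCaP and LAPC4 pairs and 0 in the VCaP pair. The medians of these neighbours were -0.10, -0.10 and -0.24, pairs in the usual order of LnCaP, VCaP and LAPC4, beside -0.01, -0.01 and -0.02 over all tested genes. TMSB15A has 9 tested neighbours, and 3, 2 and 3 of them were at least 2-fold higher in LnCaP-abl, VCaP-CR and LAPC4-CR than in the parent, while 0 were lower. Over all tested genes, 6.26%, 2.37% and 5.28% were at least 2-fold higher in these pairs and 6.28%, 2.05% and 5.37% lower. The higher neighbours of TMSB15A were BEX5, NXF2 and NXF2B in LnCaP-abl and again in LAPC4-CR. In VCaP-CR they were NXF2B and the pseudogene MTND1P32. These genes were named after their values were seen. Whether the counts of NXF2 and NXF2B share reads was not tested. TMSB15A itself was the lower one in each resistant line, as given above. TMSB15B has 5 tested neighbours, of which 1 was at least 2-fold higher in the LAPC4 pair and 0 in the others.

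**Figure D4:**
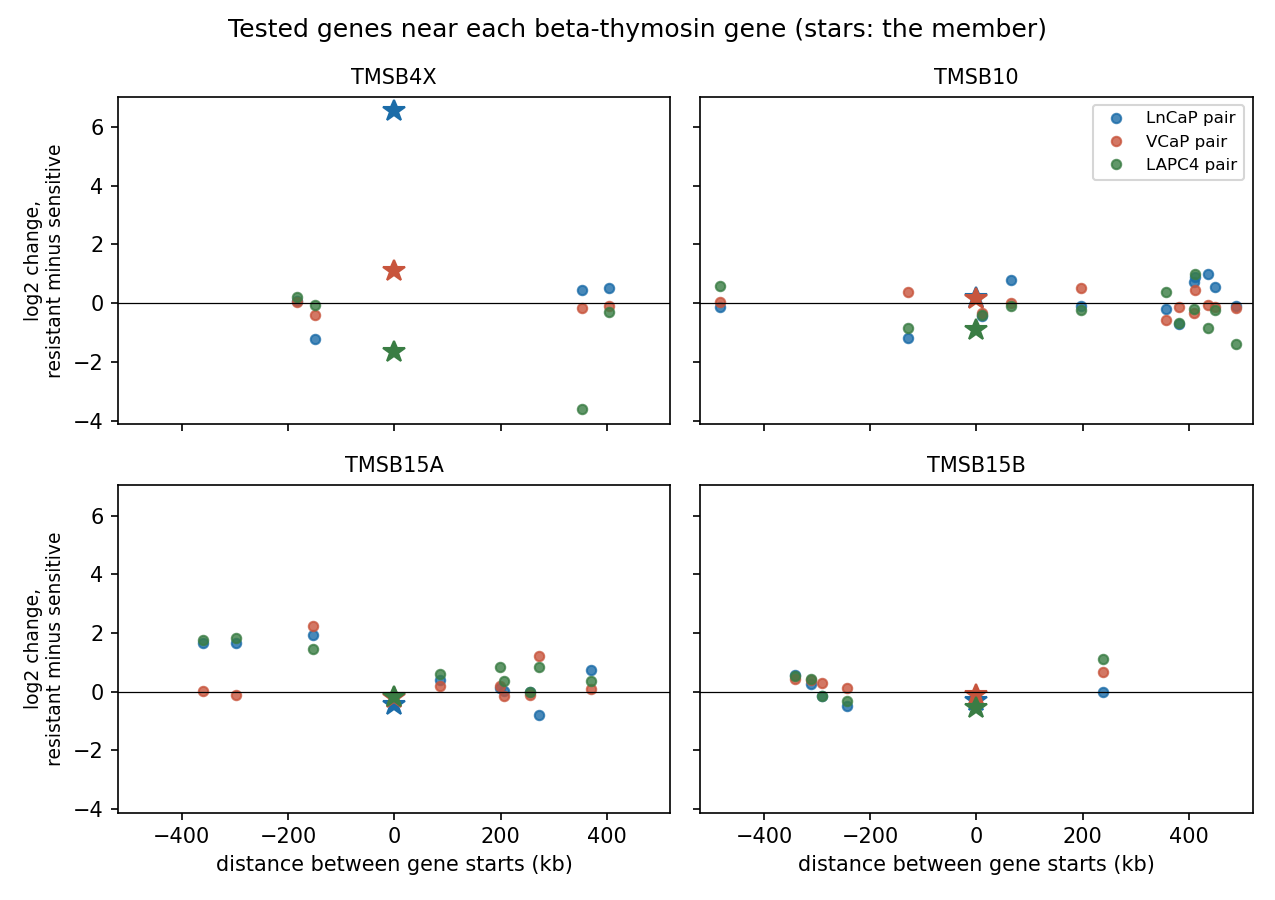
Log2 change, resistant minus sensitive, of each tested gene whose start lies within 500 kb of a beta-thymosin gene, against the distance between starts in kb; stars are the member itself and colours the parental pairs. The TMSB4X star of the LnCaP pair stands at 6.53 while its 4 neighbours lie between -1.22 and 0.53.

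The genes whose products work on the same actin monomers were read next, with 75 genes in 6 lists, of which 55 passed the level filter. With edgeR's quasi-likelihood test over the 3 pairs, 0 of the 55 were called higher and 0 lower at a false discovery rate of 5%. The lowest adjusted p among them was 0.584 in edgeR. Over all tested genes the share called by edgeR was 0.0% in either direction, while DESeq2 called 82 genes higher and 55 lower. At an unadjusted p under 0.05 in edgeR, 5 of the 55 were higher and 2 lower, beside 4.49% and 3.42% of all tested genes. The median change of the 55 was 0.29, 0.16 and -0.06 for the LnCaP, VCaP and LAPC4 lines, beside medians over tested protein-coding genes of 0.08, -0.01 and 0.03. Genes past 2-fold against the parent numbered 5 higher with 1 lower for LnCaP-abl, 3 with 0 for VCaP-CR, and 3 with 7 for LAPC4-CR. The shares of all tested genes were 6.26% with 6.28%, 2.37% with 2.05%, and 5.28% with 5.37%. The change of TMSB4X in the LnCaP pair was larger than that of any of the 55.

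Of the actin isoforms, 3 of 6 passed the filter, and the medians of their changes were 0.87, 0.21 and -0.78. ACTB, cytoplasmic beta-actin, was at 169 and 311 scaled FPKM in LnCaP and LnCaP-abl, 73.3 and 83.1 in VCaP and VCaP-CR, and 169 and 151 in LAPC4 and LAPC4-CR. ACTG1, cytoplasmic gamma-actin, was at 238 and 443, 352 and 406, and 558 and 251. Both actins were thus higher in LnCaP-abl and VCaP-CR and lower in LAPC4-CR than in the parent, in the order of the TMSB4X changes but by less, with log2 changes of 0.87, 0.18 and -0.16 for ACTB and 0.89, 0.21 and -1.15 for ACTG1. Their edgeR adjusted p was 0.794 and 0.999. ACTA1, skeletal muscle actin, was at 2.18 to 5.04 scaled FPKM and had log2 changes of 0.29, 0.83 and -0.78.

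Among the other monomer binders, 9 of 10 passed the filter, with median changes of 0.50, -0.12 and -0.19. PFN1, the main profilin, was at 184 and 209 scaled FPKM in the LnCaP pair, 91.9 and 76.9 for VCaP and VCaP-CR, and 321 and 297 for LAPC4 and LAPC4-CR. CFL1, the main non-muscle cofilin, was at 53.7 and 65.1, 150 and 163, and 84.4 and 66.0. Both stayed within 2-fold in each pair, with mean changes of -0.06 ± 0.22 for PFN1 and 0.01 ± 0.32 for CFL1 (SD, n = 3 pairs). TWF2, a twinfilin that binds monomers and caps filaments, was at 11.1 and 10.3, 4.74 and 2.28, and 29.8 and 6.52, with edgeR's adjusted p 0.618. Its relative TWF1 was the higher one in the resistant line of each pair (28.5 and 40.6, 31.3 and 37.6, 22.3 and 40.8, edgeR adjusted p 0.632). CAP2, a cyclase-associated protein that recycles monomers, had log2 changes of 0.61, -0.54 and -1.20.

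Of the nucleation and elongation factors, 24 of 26 passed the filter, and their medians were 0.13, 0.20 and -0.04. ENAH, which speeds filament growth at the leading edge, had log2 changes of 0.90, 1.02 and 0.53. It was the higher one in each resistant line, with a mean change of 0.81 ± 0.25 (SD, n = 3 pairs) and an edgeR adjusted p of 0.584. SPIRE1, a nucleator with several actin-binding repeats, had log2 changes of -1.16, -0.12 and -1.10, and WASL, which activates the Arp complex, 0.12, 1.21 and 0.96. Their edgeR adjusted p was 0.588 and 0.589.

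Capping and severing proteins had 7 of 11 members tested, with medians of 0.34, 0.16 and -0.06. CAPG, which caps filament ends, was at 0.418 to 0.792 scaled FPKM in the LnCaP and VCaP pairs, 6.47 in LAPC4 and 1.85 in LAPC4-CR. It also lies within 500 kb of TMSB10. TMOD3, a tropomodulin of the slow-growing end, had log2 changes of 0.41, 0.47 and 0.78 (edgeR adjusted p 0.607), and TMOD2 0.34, 0.84 and -0.06.

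For the MRTF-SRF axis, 8 of 15 genes were tested, with medians of 0.37, 0.05 and 0.04. SRF was at 7.09 and 10.1 scaled FPKM in the LnCaP pair, 6.76 and 5.06 for VCaP and VCaP-CR, and 9.64 and 5.78 for LAPC4 and LAPC4-CR. MYH9, the heavy chain of non-muscle myosin, was at 19.4 and 33.0, 8.52 and 12.8, and 10.3 and 26.4. It was the higher one in each resistant line, with a mean change of 0.85 ± 0.38 (SD, n = 3 pairs) and an edgeR adjusted p of 0.584. MKL2, which encodes MRTF-B, had log2 changes of 0.37, 0.48 and 1.22 (edgeR adjusted p 0.584), and VCL, vinculin, 0.34, 0.59 and 0.16. The other 7 genes of the list, MKL1, FHL2, TAGLN, CNN1, CTGF, MYL9 and EGR1, were below the level filter, so the list's values rest on its more abundant genes.

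Of the partners and processing enzymes of thymosin beta-4, 4 of 7 were tested, with medians of -0.02, 0.27 and 0.39. LIMS1, an adaptor of the integrin-linked kinase complex, was at 5.55 and 17.5 scaled FPKM in the LnCaP pair, 19.1 and 19.6 for VCaP and VCaP-CR, and 6.35 and 6.85 for LAPC4 and LAPC4-CR. It was thus higher with TMSB4X in LnCaP-abl and nearly level elsewhere, with an edgeR adjusted p of 0.718 over the 3 pairs. MEP1A, a subunit of meprin, which takes part in cutting thymosin beta-4, had 359 counts in VCaP-CR, 24 in VCaP and 5 to 14 in the other 4 libraries, which makes 7.74 scaled FPKM in VCaP-CR against 0.848 in VCaP. PREP, the oligopeptidase that releases the tetrapeptide Ac-SDKP, had log2 changes of -0.19, 0.50 and 0.69.

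**Figure D5:**
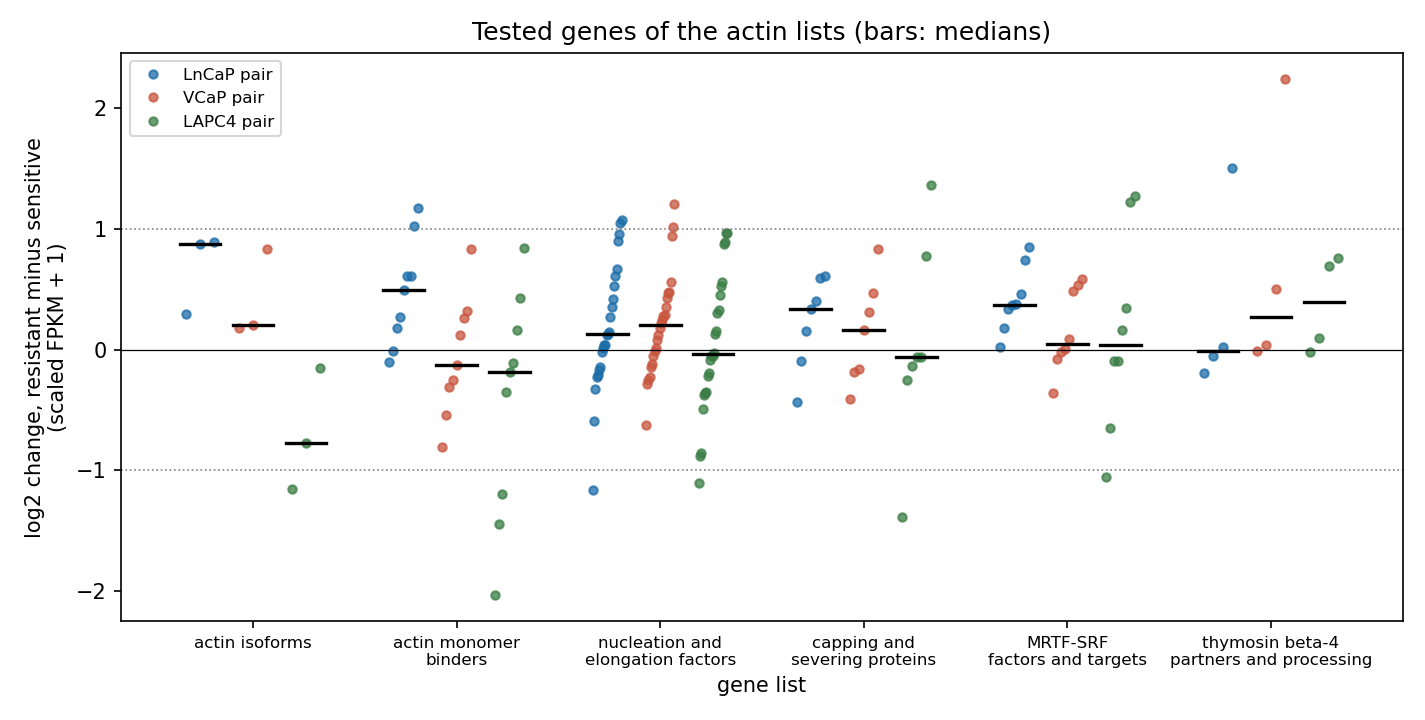
Log2 change (scaled FPKM + 1), resistant minus sensitive, of each of the 55 tested genes in the 6 actin lists, by parental pair; each point is 1 gene, black bars are medians and dotted lines mark 2-fold. Actin isoforms have medians of 0.87, 0.21 and -0.78, and no gene comes near the TMSB4X change of 6.53, which is off the plotted range.

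Genes were also ranked by the likeness of their pattern over the 6 libraries to that of TMSB4X plus TMSL3, among 2080 tested protein-coding genes that spanned at least 2 on the log2 scale. Paired lines share a parental line, so the 6 points are not independent, and the genes were picked as the highest of many. TULP4 had the highest Pearson's r, 0.986 (Spearman's rho 0.943, n = 6 libraries), and was at 2.79, 15.7, 5.88, 7.86, 10.0 and 8.68 scaled FPKM in LnCaP, LnCaP-abl, VCaP, VCaP-CR, LAPC4 and LAPC4-CR. It was the 1 gene of the 2080 with r over 0.95. FURIN, a proprotein convertase, had r 0.949 and ran from 2.42 in LnCaP to 13.5 in LnCaP-abl. HTATIP2 followed with r 0.946 and JUN, a subunit of AP-1, with r 0.944. The 4 genes were lowest in LnCaP, and their log2 changes in the LnCaP pair, 1.83 to 3.16, were smaller than that of TMSB4X. The fifth, AL627171.1, is an entry of 60 bases with 0 scaled FPKM in LnCaP and rho 0.714.

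For TMSB10, 14 of the 2080 genes had r over 0.95. The 5 highest were AC008745.1, whose identifier carries the symbol SELENOW in the gene name table used here, with r 0.998, BRSK1 with 0.996, FMNL2 with 0.985, TNFSF10 with 0.979 and CYP4X1 with 0.976. AC008745.1 was at 35.5 and 33.7 scaled FPKM in the LnCaP pair, 66.9 and 68.6 for VCaP and VCaP-CR, and 226 and 142 for LAPC4 and LAPC4-CR. FMNL2, a formin that elongates filaments, was at 0.669 and 0.512, 1.95 and 1.48, and 7.46 and 3.67. TNFSF10, the death ligand TRAIL, was at 0.683 and 0.561, 3.50 and 5.33, and 36.2 and 9.40. The 5 genes were, like TMSB10, highest in LAPC4, second in LAPC4-CR and lowest in the LnCaP lines.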

How the data were processed

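RNA was measured in 6 prostate cancer lines, 1 library each, prepared from total RNA with a SOLiD kit per the labels' protocols. Per the file headers, the deposited tables give each gene's count and its FPKM; the submitters' processing notes name HTSeq and the build hg18. The sources used here do not give the aligner, the annotation, the strand setting or the treatment of reads matching several places. The deposited FPKM equalled the count divided by the deposited gene length and the table's total within 0.087% for entries of 10 counts or more; 5 of the 6 tables give the length. A deposited length longer than the transcript present lowers an FPKM.

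Entries sharing a symbol were summed, giving 47032 symbols. Small RNA classes and mitochondrial names (4154 symbols) were left out of tests. FPKM was divided by a size factor per library, the median ratio over 11633 genes at 1 or more in all libraries (0.847 to 1.11). Tests covered the 16275 genes whose scaled FPKM averaged 1 or more. Resistant and sensitive libraries were compared on the deposited counts with edgeR 4.0.16 (R 4.3.3, TMM, quasi-likelihood, parental line as a block, Benjamini-Hochberg). The fit was also run on simulated counts that had no differences between parental lines, so that run does not measure its error in these data. The pairing comes from the line names. Alternatives used limma 3.58.1 and DESeq2 1.42.0. Sequences were aligned with Biopython 1.88.

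The named genes are the 5 members, in each list the 3 tested genes with the largest absolute mean change plus ACTB, ACTG1, PFN1, CFL1 and SRF, neighbours at least 2-fold changed in a pair where the member was, and the 5 genes most like each pattern. The members and lists were chosen with earlier results of these data known. Some cell type markers are not reported here and were left out of the marker sums.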

Additional observations from a re-analysis of the deposited data

Results flagged for a closer look

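TMSB4X and TMSL3 differed from the parent in the same direction as each other within each pair, but the direction was not the same in all pairs. The sum of TMSB4X and TMSL3 was higher in LnCaP-abl and lower in LAPC4-CR than in the parent, and the log2 changes of these 2 pairs were 8.44 apart. For TMSB4X alone this difference was 8.21, and for TMSL3 alone 8.34. TMSB4X was also higher in VCaP-CR, with a difference between the VCaP and LAPC4 pairs of 2.76. These differences were not tested, because there is 1 library per line.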

How the results depend on the processing

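All 75 changes of the 5 members under 5 other pseudocounts and scalings kept their sign and their side of 2-fold. Each of these settings added at least 0.25, which keeps the changes of the low TMSB15B small. Without an added value its ratio, sensitive over resistant, was 2.25 in the LnCaP pair and 2.06 in the LAPC4 pair, past 2-fold. The sum of TMSB4X and TMSL3 had a log2 change of 6.36 in the LnCaP pair with a pseudocount of 5, and in the LAPC4 pair -1.39 with FPKM as deposited and -1.55 with factors over protein-coding genes. Leaving out the LnCaP pair reversed the mean change over pairs, from 2.16 to -0.24 for the sum (range with 1 pair left out -0.24 to 3.98), to -0.29 for TMSB4X (range -0.29 to 3.81) and to -0.20 for TMSL3 (range -0.20 to 3.97). The sum in the VCaP pair, 0.99, passed 2-fold with FPKM as deposited (1.06) and with TMM factors (1.01). Where edgeR called 0 genes in either direction, DESeq2 called 82 higher and 55 lower, and edgeR called 60 and 40 without a filter on low values, and 0 to 8 higher and 1 to 14 lower with 1 pair left out (0 and 5 without the LnCaP pair, 8 and 14 without the VCaP pair, 2 and 1 without the LAPC4 pair); limma and edgeR without the replicate block called 0 and 0. At an unadjusted p under 0.05, edgeR had 731 higher and 557 lower genes with the block and 255 and 165 without it. Actin-list genes at least 2-fold changed depended on the pseudocount. In the LnCaP pair 5 higher and 1 lower became 1 and 0 with a pseudocount of 5, and 2 were higher with factors over protein-coding genes. In the VCaP pair 3 higher became 6 with a pseudocount of 0.25 and 1 with 5. In the LAPC4 pair 3 higher became 6 and 1, and 1 with a filter at a mean of 5 scaled FPKM, and 7 lower became 3 with a pseudocount of 5. The cause was not tested. Depth limited TMSB4X and TMSL3 in LnCaP most, with 59 and 17 counts, and TMSB15B in LnCaP-abl, with 17. With a window of 1000 kb, 20 of 24 counts of changed neighbours stayed within 1.5 times. A count of 0 in both windows also passes this rule. More neighbours were tested in the wider window, so an equal count above 0 is a smaller share. TMSB15A had 8 of 20 tested neighbours at least 2-fold higher in the LAPC4 pair, in place of 3 of 9. TMSB10 had 5 of 22 in the LnCaP pair, in place of 1 of 12. Over all tested genes 5.28% were higher in the LAPC4 pair and 6.26% in the LnCaP pair.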

Other observations

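Entries named as copies of TMSB10 were counted too. TMSB10P1 stood at 1.05% to 3.07% of the TMSB10 count in the 6 libraries, with 5 counts in LnCaP and 312 in LAPC4. TMSB10P2 had 0 to 36 counts. Of the 98 stretches of 35 bases in TMSB10P1, 25 occur unchanged in TMSB10, against 0 of 97 in TMSB10P2.

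LUM, which encodes the matrix proteoglycan lumican, stood apart from the other fibroblast markers. It had 2420 counts in VCaP-CR, 116 in VCaP and at most 80 in the other 4 libraries.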
